A study of Mus musculus with 8 samples.

Results

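Interferon-stimulated genes are the genes that cells switch on when an interferon binds its receptor. A set of 37 such genes was followed in the hearts of 4 HVCN1 null and 4 WT mice, listed by name. All 37 were found in the count table, which lists 39056 genes, and all 37 were kept by the filter on low counts that left 14796 genes for testing. None of the 37 was a DEG between HVCN1 null and WT hearts, against 169 of all tested genes (1.14%). Here a DEG is a gene with a Benjamini-Hochberg adjusted p under 0.05 in edgeR's quasi-likelihood test. Their differences leaned to lower values in HVCN1 null hearts, 28 of 37 having a log2 fold change below 0, against 52.7% of all tested genes, with a median of -0.09.

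Type I interferons, of which interferon alpha and interferon beta are the best known, are made after a cell senses foreign nucleic acid. They signal through the receptor chains IFNAR1 and IFNAR2 and the kinases JAK1 and TYK2 to a complex that holds STAT2 and IRF9, which binds a DNA motif called the interferon-stimulated response element (ISRE). Interferon gamma acts through its own receptor, and genes that it induces often carry another motif, the gamma-activated sequence (GAS). The induced proteins block viral entry, degrade or trap viral RNA, and amplify the response. A low level of these transcripts is found in many healthy tissues, the heart included.

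HVCN1 is the voltage-gated proton channel, which carries protons out of cells. The HVCN1 null mice carried a knockout of its gene, whose design and breeding are not described further, and C57BL/6 is named as the background. All 8 mice were males 3 months old, no agent was given, and 1 poly-A RNA library was made per heart. Replicates were thus separate animals, numbered 1 to 4 for HVCN1 null hearts and 5 to 8 for WT hearts. Levels are given as CPM, the counts of a gene set to a common library size after TMM scaling, and as CPM per kb of exon where genes are compared with each other. Each log2 fold change divides HVCN1 null by WT, so that values under 0 are lower in HVCN1 null hearts.

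The libraries held from 25851255 to 36396297 counts in HVCN1 null hearts and from 32595114 to 38874640 in WT hearts. Hvcn1 itself was at 0.0380 to 0.180 CPM in HVCN1 null hearts and at 1.51 to 2.62 CPM in WT hearts. The 8 cardiomyocyte markers summed to between 60423 and 77276 CPM in HVCN1 null hearts and between 65038 and 78482 CPM in WT hearts. Atrial marker RNA varied widely, and hearts 2 and 3 of the HVCN1 null group and 5 and 7 of the WT group held much of it.

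To show the element through which these genes are addressed, the stretch upstream of the transcription start was read for 9 members that carry it, chosen to include the classical members Isg15 and Ifit1, both copies of Ifit3, and members whose values are discussed below. Windows from 250 bases before to 50 bases after each start were taken from RefSeq on GRCm38.p6, the build of the files, and 27 of the 37 members had one. The ISRE core was searched as GAAANNGAAA on both strands, N being any base, and overlapping matches were counted separately. The capitals mark the matches. Where the capitals read TTTC, the match lies on the opposite strand to the gene, and all stretches are written 5′ to 3′ along the gene.
Isg15 (chr4:156200855-156200916, minus strand): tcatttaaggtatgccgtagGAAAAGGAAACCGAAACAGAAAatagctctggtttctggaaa
Ifit1 (chr19:34640765-34640833, plus strand): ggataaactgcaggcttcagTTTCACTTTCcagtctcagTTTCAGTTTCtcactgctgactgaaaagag
Ifit3 (chr19:34583353-34583436, plus strand): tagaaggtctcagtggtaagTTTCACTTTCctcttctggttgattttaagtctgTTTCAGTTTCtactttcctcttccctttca
Ifit3b (chr19:34607749-34607832, plus strand): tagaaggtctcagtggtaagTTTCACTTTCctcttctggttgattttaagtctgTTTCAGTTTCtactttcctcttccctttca
Bst2 (chr8:71537567-71537622, minus strand): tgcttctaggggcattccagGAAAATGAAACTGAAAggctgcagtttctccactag
Irgm1 (chr11:48871421-48871470, minus strand): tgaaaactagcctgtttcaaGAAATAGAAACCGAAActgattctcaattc
Stat2 (chr10:128270256-128270305, plus strand): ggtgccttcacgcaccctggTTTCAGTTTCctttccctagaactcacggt
Oas3 (chr5:120777705-120777754, minus strand): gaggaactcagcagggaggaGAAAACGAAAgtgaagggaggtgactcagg
Rsad2 (chr12:26456543-26456592, minus strand): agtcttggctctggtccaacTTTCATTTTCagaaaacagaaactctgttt

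In Isg15, 3 overlapping matches form 1 block whose nearest base lies 57 bases before the start. Ifit3 and its neighbour Ifit3b carry the same letters over the 84 bases shown. The core was found in any window of 18 of the 27 members (66.7%), against 3.99% of the 27025 genes with a window. It occurred at least 2 times within a single window for 9 members, against 0.266% of those genes. The GAS letters TTCNNNGAA were found in any window of 8 of the 27 members (29.6%), against 9.55% of the genes. Members with the ISRE core had a median log2 fold change of -0.11, with 14 of 18 below 0. The 9 members whose windows lacked the ISRE core had a median of -0.03, with 5 below 0. The members without a window were Mx1, Mx2, Iigp1, Ifi27, Parp14, Rtp4, Zbp1, Oas2, Dhx58 and Usp18, and their median was -0.22, with 9 of 10 below 0. Such matches are a description of the sequence, and occupancy was not measured.

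By CPM per kb of exon, averaged over the 8 hearts, Ifitm3 stood first among the members at 87.9 ± 13.1 (SD, n = 8). It encodes a membrane protein that restricts the entry of enveloped viruses. Bst2, which encodes tetherin, a protein that holds budding virions at the cell surface, followed at 21.9 ± 3.41 CPM per kb. Ifi27 stood at 14.8 ± 1.93, Ifi35 at 9.27 ± 1.82 and Rsad2 at 7.21 ± 3.65 CPM per kb. In this order Ifi35 and Rsad2 did not differ beyond their spread. At the other end stood Oas3 at 0.112 ± 0.0492 and Mx1 at 0.1498 ± 0.0638 CPM per kb, which did not differ beyond their spread. Counts per heart were accordingly 1453 to 2866 for Ifitm3, 11 to 43 for Oas3 and 9 to 35 for Mx1.

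Of the 5 members highest per kb, all but Rsad2, which is described further on, had log2 fold changes close to 0. Ifitm3 was at 57.2, 65.0, 71.0 and 50.7 CPM in HVCN1 null hearts 1 to 4 and at 72.5, 55.4, 56.0 and 49.1 CPM in WT hearts 5 to 8. The highest and the lowest heart were both WT, and the groups overlapped throughout (log2 fold change 0.07, SE 0.14, edgeR adjusted p = 0.940). Ifitm3 is 91.6% identical to Gm6885 over 52.1% of its length and 88.9% identical to AC121299.1 over 58.7%. Bst2 was at 18.9, 18.6, 22.0 and 17.5 CPM in HVCN1 null hearts and at 26.2, 19.7, 19.4 and 16.2 CPM in WT hearts. Again a single WT heart, number 5, stood highest, with a log2 fold change of -0.08 (SE 0.14, edgeR adjusted p = 0.919). Ifi27, a small hydrophobic protein of mitochondrial and nuclear membranes, was at 22.1, 18.9, 25.8 and 19.2 CPM in HVCN1 null hearts and at 25.0, 19.1, 23.8 and 19.99 CPM in WT hearts. Its values ran nearly side by side in the 2 groups (log2 fold change -0.04, SE 0.13, edgeR adjusted p = 0.971). Ifi35 was at 14.9, 15.1, 21.6 and 14.3 CPM in HVCN1 null hearts and at 20.2, 15.2, 14.2 and 12.6 CPM in WT hearts. Here 1 heart of each group, HVCN1 null heart 3 and WT heart 5, stood above the remaining hearts (log2 fold change 0.08, SE 0.17, edgeR adjusted p = 0.942). An antisense gene overlaps 16.8% of the exon bases of Ifi35, and the strand setting of the counting is not given in the sources used here. For each of these 4 genes the sign turned when some single heart was left out, and none was a DEG in any of those fits.

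**Figure D1:**
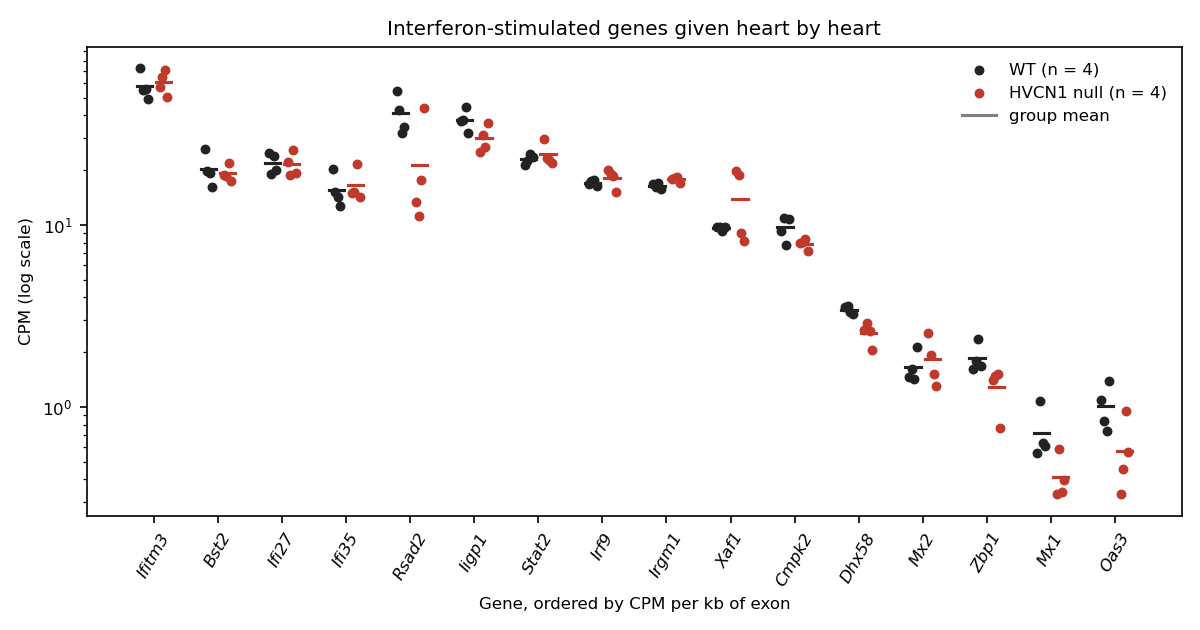
CPM (log axis) of the 16 members given heart by heart, ordered by CPM per kb of exon, with 1 point per heart (black WT, red HVCN1 null, n = 4 each) and a line at each group mean. Dhx58 and Zbp1 are the 2 genes whose red points all lie below their black points, and Xaf1 and Rsad2 have red points that split into separate levels.

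Among the factors that carry the signal to DNA, the levels of both groups were close. Irf9, the DNA-binding part of the complex with STAT2, was at 19.9, 19.0, 18.6 and 15.2 CPM in HVCN1 null hearts and at 16.8, 17.5, 17.6 and 16.3 CPM in WT hearts. HVCN1 null hearts held both the highest 3 values and the lowest (log2 fold change 0.09, SE 0.10, edgeR adjusted p = 0.850). Stat2 was at 29.5, 23.5, 22.8 and 21.8 CPM in HVCN1 null hearts and at 21.5, 22.5, 24.5 and 23.6 CPM in WT hearts, with HVCN1 null heart 1 alone above the range of WT hearts (log2 fold change 0.08, SE 0.10, edgeR adjusted p = 0.878). Irf1, a factor induced early by interferon gamma, averaged 23.1 ± 3.41 CPM in HVCN1 null hearts against 22.5 ± 2.49 CPM in WT hearts (SD, n = 4 each). Irf7, which amplifies interferon production, averaged 13.5 ± 1.60 CPM in HVCN1 null hearts against 15.7 ± 1.65 CPM in WT hearts, with a log2 fold change of -0.22 (edgeR unadjusted p = 0.0876, adjusted p = 0.558). It was the only one of the 4 with a log2 fold change below 0.

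Sensors of foreign nucleic acid included the 2 members without overlap between the groups. Dhx58 encodes LGP2, a helicase that modulates RNA sensing by MDA5. It was at 2.64, 2.89, 2.62 and 2.06 CPM in HVCN1 null hearts and at 3.54, 3.59, 3.33 and 3.24 CPM in WT hearts. Each HVCN1 null heart lay below each WT heart, with a log2 fold change of -0.42 (SE 0.16, edgeR unadjusted p = 0.0215, adjusted p = 0.322). Zbp1, a sensor of Z-form nucleic acid that triggers necroptosis, was at 1.41, 1.47, 1.52 and 0.763 CPM in HVCN1 null hearts and at 1.62, 1.79, 2.35 and 1.69 CPM in WT hearts. The gap between the groups was small beside the spread within them (log2 fold change -0.53, SE 0.26, edgeR unadjusted p = 0.0625, adjusted p = 0.493). With every HVCN1 null value below every WT value there were 2 of 37 members (5.41%), against 3.45% of all tested genes. In the opposite order there were 0 members, against 3.60% of all tested genes. The RNA helicases Ddx58 (RIG-I) and Ifih1 (MDA5) had log2 fold changes of -0.04 and -0.06, and Eif2ak2, the kinase PKR that halts translation on double-stranded RNA, had 0.02.

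The ISG15 system, in which Isg15 encodes a ubiquitin-like tag and Usp18 the protease that removes it, had a median log2 fold change of -0.20. Isg15 averaged 4.10 ± 0.799 CPM in HVCN1 null hearts against 4.66 ± 1.51 CPM in WT hearts, where WT heart 5 stood at 6.88 CPM and the other WT hearts at 3.49 to 4.14 CPM. Over 63.8% of its length Isg15 is 95.2% identical to AC151275.1, which leaves its value uncertain. Usp18 averaged 3.09 ± 0.541 CPM in HVCN1 null hearts against 3.57 ± 0.663 CPM in WT hearts. The IFIT genes encode proteins that bind viral RNA with a foreign 5′ end. All 4 (Ifit1, Ifit2, Ifit3 and Ifit3b) had log2 fold changes below 0, between -0.13 and -0.02, and edgeR adjusted p values from 0.896 to 0.995. Ifit3 and Ifit3b are 97.8% identical in transcript sequence, so reads could be divided wrongly between them, and their separate values are uncertain.

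**Figure D2:**
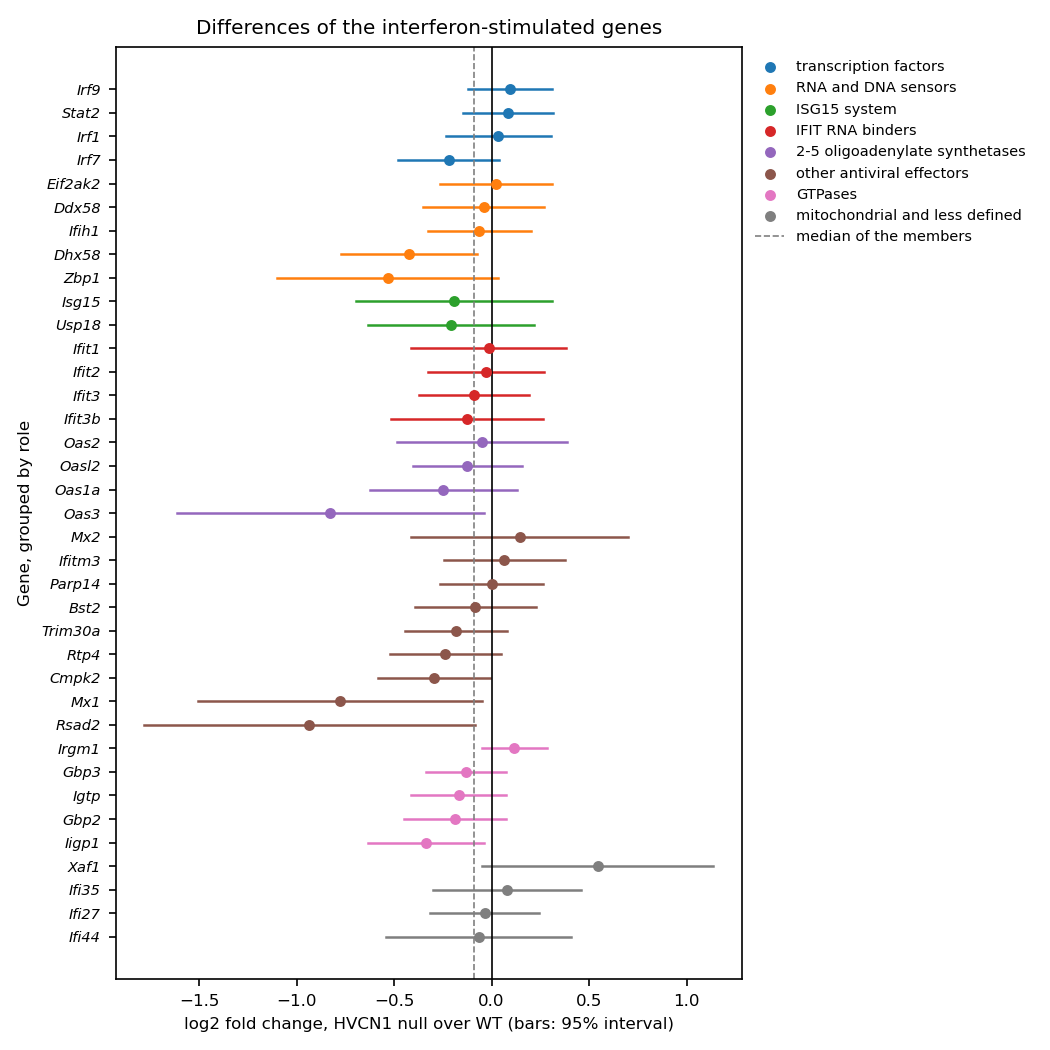
Log2 fold change of each member, HVCN1 null over WT, with its 95% interval, grouped by role. Points lie between -0.93 (Rsad2) and 0.54 (Xaf1), and 28 of 37 lie left of 0, with the dashed line at the median of -0.09.

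The 2-5 oligoadenylate synthetases make the signal that activates the RNA-degrading enzyme RNase L. All 4 members had log2 fold changes below 0, with a median of -0.19. Oas3 was at 0.330, 0.455, 0.950 and 0.565 CPM in HVCN1 null hearts and at 1.09, 0.834, 0.741 and 1.38 CPM in WT hearts. HVCN1 null heart 3 fell inside the range of WT hearts and the other 3 below it (log2 fold change -0.83, SE 0.35, edgeR unadjusted p = 0.0409, adjusted p = 0.423). Oas1a, Oas2 and Oasl2 had log2 fold changes of -0.25, -0.05 and -0.12. These genes lie on chromosome 5, the chromosome of Hvcn1, at 1.30 to 7.29 Mb from it. Of the 430 other tested genes within 20 Mb of Hvcn1, 7 were DEGs (1.63%), and none of the 4 members was among them. Oas1a is 97.5% identical to Oas1g over 98.7% of its length, which leaves its value uncertain.

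Of the other antiviral effectors, Mx1, Rsad2 and Cmpk2 had lower values at an unadjusted p under 0.05, and none of them was a DEG. The Mx1 protein, where it is functional, is a GTPase that traps viral nucleocapsids, and whether these mice made it was not measured. Mx1 RNA was at 0.330, 0.589, 0.342 and 0.396 CPM in HVCN1 null hearts and at 0.557, 1.08, 0.635 and 0.608 CPM in WT hearts. HVCN1 null heart 2 lay above WT heart 5, and WT heart 6 stood highest (log2 fold change -0.78, SE 0.33, edgeR unadjusted p = 0.0387, adjusted p = 0.415). Mx2, the paralog of Mx1, is annotated as a polymorphic pseudogene. It was at 2.55, 1.93, 1.52 and 1.30 CPM in HVCN1 null hearts and at 1.47, 1.61, 1.43 and 2.13 CPM in WT hearts. HVCN1 null hearts held both the highest and the lowest value (log2 fold change 0.14, SE 0.25, edgeR adjusted p = 0.921). Over 41.7% of its length Mx2 is 94.6% identical to Mx1.

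Rsad2 had the largest absolute log2 fold change of the 37 members. It encodes viperin, a radical SAM enzyme that makes a chain-terminating nucleotide against viral polymerases. Rsad2 was at 13.3, 11.1, 17.6 and 43.8 CPM in HVCN1 null hearts and at 54.3, 43.1, 32.1 and 34.7 CPM in WT hearts. HVCN1 null hearts 1, 2 and 3 lay below all WT hearts, and HVCN1 null heart 4 lay above 3 of the 4. The log2 fold change was -0.93 (SE 0.38, edgeR unadjusted p = 0.0340, adjusted p = 0.397). Without HVCN1 null heart 4 it was -1.56, and Rsad2 was then a DEG (edgeR adjusted p = 0.00825), the only member called in any of the 19 other fits. The 8 erythroid markers, among them the haemoglobin genes, also varied over the hearts. Their summed CPM ran from 1296 to 8427 in HVCN1 null hearts and from 3037 to 15295 in WT hearts. HVCN1 null hearts 1 and 2 had the lowest erythroid sums and the lowest Rsad2, and WT heart 5 and HVCN1 null heart 4 the highest of both. The order differed in other hearts. WT heart 6 had a lower erythroid sum than HVCN1 null heart 3 (3037 against 3226 CPM) but more Rsad2 (43.1 against 17.6 CPM). All 8 erythroid markers were detected and had log2 fold changes below 0, with a median of -1.11, and 0 of them were DEGs. At an unadjusted edgeR p under 0.05, 2 of the 8 were lower, against 5.52% of all tested genes. The part of erythroid RNA in the Rsad2 values was not tested. In bulk tissue, fewer cells of a type and less RNA per cell cannot be told apart.

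Isg20 and Ube2l6, chosen after their values were seen, had their highest and lowest values in the same hearts as Rsad2, though with hearts 1 and 2 in the opposite order. Isg20, an interferon-induced RNA exonuclease, was at 3.75, 5.46, 8.02 and 16.4 CPM in HVCN1 null hearts and at 29.3, 10.9, 12.5 and 15.4 CPM in WT hearts (log2 fold change -1.02, SE 0.44, edgeR adjusted p = 0.429). Ube2l6, the enzyme that conjugates ISG15, was at 16.2, 19.0, 33.5 and 60.8 CPM in HVCN1 null hearts and at 114, 35.7, 42.1 and 49.7 CPM in WT hearts (log2 fold change -0.90, SE 0.46, edgeR adjusted p = 0.535). In both genes WT heart 5 stood highest, HVCN1 null heart 4 second, and HVCN1 null hearts 1 and 2 lowest. WT heart 6 was the lowest WT heart for Isg20 (10.9 CPM), Ube2l6 (35.7 CPM) and the erythroid sum (3037 CPM). For Rsad2 it stood above WT hearts 7 and 8, at 43.1 CPM. The erythroid sum ordered the hearts as both genes did, except WT heart 6 against HVCN1 null heart 3 and HVCN1 null heart 1 against 2. The part of erythroid RNA in these values was not tested.

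Cmpk2, which encodes a mitochondrial nucleotide kinase, is the neighbour of Rsad2 on chromosome 12, from 26469204 to 26479837 on the plus strand, with Rsad2 from 26442746 to 26456452 on the minus strand. It was at 7.99, 8.08, 8.40 and 7.15 CPM in HVCN1 null hearts and at 9.29, 11.0, 7.78 and 10.8 CPM in WT hearts. Unlike for Rsad2, HVCN1 null heart 4 was the lowest of the 8, and WT heart 7 fell among the HVCN1 null hearts (log2 fold change -0.30, SE 0.13, edgeR unadjusted p = 0.0446, adjusted p = 0.433). Parp14, a mono-ADP-ribosyltransferase, and Rtp4, a chaperone of membrane receptors, had log2 fold changes of 0.00 and -0.24.

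**Figure D3:**
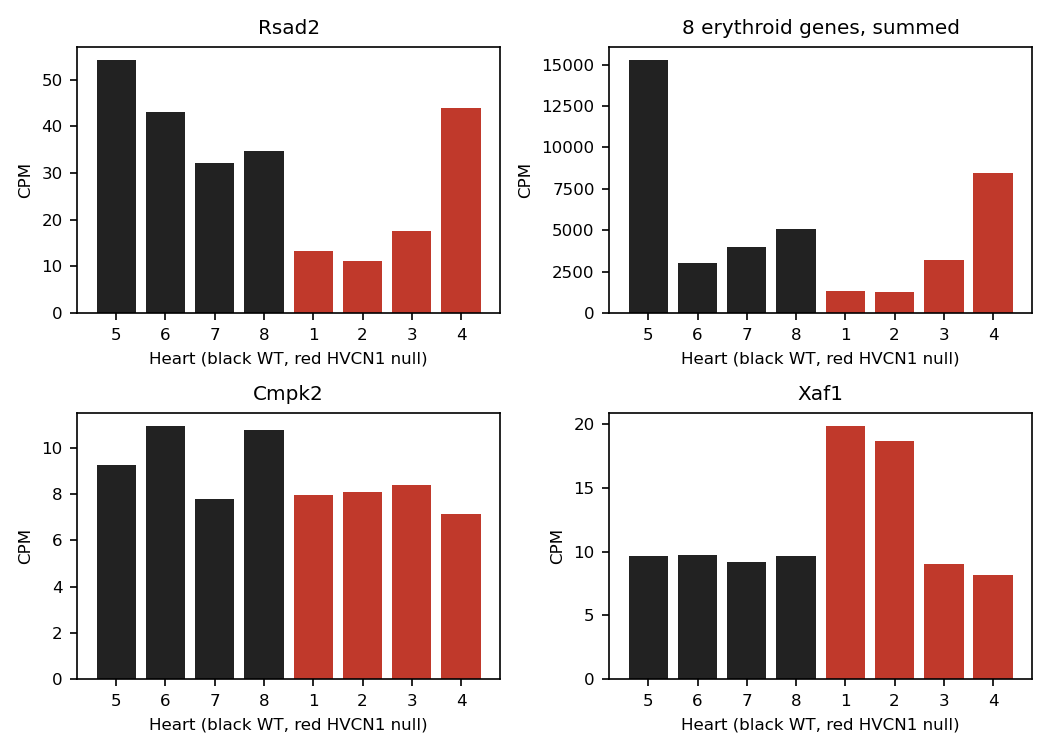
CPM per heart (bars from 0, black WT hearts 5 to 8, red HVCN1 null hearts 1 to 4) of Rsad2, of 8 erythroid marker genes summed, of Cmpk2 and of Xaf1. HVCN1 null heart 4 stands at 43.8 CPM for Rsad2 and 8427 CPM for the erythroid sum, and only HVCN1 null hearts 1 and 2 stand near 20 CPM for Xaf1.

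Interferon-inducible GTPases attack the vacuoles in which intracellular pathogens live. Iigp1 was at 25.0, 31.4, 26.9 and 36.3 CPM in HVCN1 null hearts and at 37.02, 37.8, 44.3 and 31.9 CPM in WT hearts. WT heart 8 lay below HVCN1 null heart 4, and the other 3 WT hearts lay above all HVCN1 null hearts (log2 fold change -0.34, SE 0.13, edgeR unadjusted p = 0.0297, adjusted p = 0.371). Over 74.4% of its length Iigp1 is 87.1% identical to Gm4951. Irgm1, a regulator of these GTPases and of autophagy, was at 17.95, 18.2, 18.4 and 16.9 CPM in HVCN1 null hearts and at 16.8, 16.2, 17.1 and 15.8 CPM in WT hearts. Only WT heart 7 lay above HVCN1 null heart 4, and the log2 fold change of 0.12 (SE 0.08, edgeR adjusted p = 0.684) had the narrowest interval of all 37 members, from -0.05 to 0.28. Gbp2, Gbp3 and Igtp had log2 fold changes of -0.19, -0.13 and -0.17.

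Xaf1, which encodes a pro-apoptotic partner of XIAP, had the most positive value. It was at 19.9, 18.7, 9.01 and 8.17 CPM in HVCN1 null hearts and at 9.69, 9.74, 9.20 and 9.69 CPM in WT hearts. HVCN1 null hearts 1 and 2 stood far above all WT hearts, while HVCN1 null hearts 3 and 4 lay below all WT hearts. The log2 fold change was 0.54 (SE 0.27, edgeR unadjusted p = 0.0694, adjusted p = 0.515), and without hearts 1 and 2 it was -0.15. Hearts 1 and 2 differ in atrial RNA, heart 1 holding little and heart 2 much, and the cause of the split in Xaf1 was not tested. Ifi44, a less well defined cytoplasmic protein, had a log2 fold change of -0.07.

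Of the 37 members, 6 had an unadjusted edgeR p under 0.05 (16.2%), against 11.0% of all tested genes. All 6 (Oas3, Mx1, Rsad2, Dhx58, Iigp1 and Cmpk2) were lower in HVCN1 null hearts, where 5.52% of all tested genes were lower at that p. In the other direction there were 0 members, against 5.46% of all tested genes. A log2 fold change below 0 was found for 28 members (75.7%) and for 52.7% of all tested genes, whose median was -0.01. The count of 0 DEGs among members was also found with DESeq2, with edgeR's exact test and with limma voom, and at an adjusted p under 0.1. The count of 6 was down to 1 without WT heart 6, to 2 without WT heart 5 or HVCN1 null heart 1, and to 3 without HVCN1 null heart 2 or 4.

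The differences of the members were bounded about as closely as those of all tested genes. The 95% interval of the log2 fold change lay within 1 of 0, that is within 2-fold, for 32 of the 37 members (86.5%) and for 84.2% of all tested genes. The exceptions were Oas3, Mx1, Rsad2, Xaf1 and Zbp1. The interval lay within 0.5 of 0, that is within 1.41-fold, for 22 members (59.5%) and for 56.5% of all tested genes. The median SE was 0.13 for the members and 0.14 for all tested genes.

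Summed over the members, the level was 492 ± 20.9 CPM in HVCN1 null hearts against 527 ± 26.2 CPM in WT hearts (SD, n = 4 each), with ranges of 463.9 to 512.5 and 492.8 to 554.7 CPM. Much of that gap came from Rsad2, with means of 21.5 CPM in HVCN1 null and 41.0 CPM in WT hearts, and from Iigp1, with 29.9 and 37.7 CPM. HVCN1 null heart 4 was the lowest of the 8 hearts for 12 of the 37 members and the highest for 0, while 12.6% of all tested genes were lowest there. WT heart 6 was the highest for 9 members and the lowest for 0, against 9.46% and 9.62% of all tested genes. HVCN1 null heart 1 was the highest for 8 members, where 16.3% of all tested genes were highest. Without HVCN1 null heart 4 the median log2 fold change of the members was -0.03, and without HVCN1 null hearts 1 and 2 it was -0.18.

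**Figure D4:**
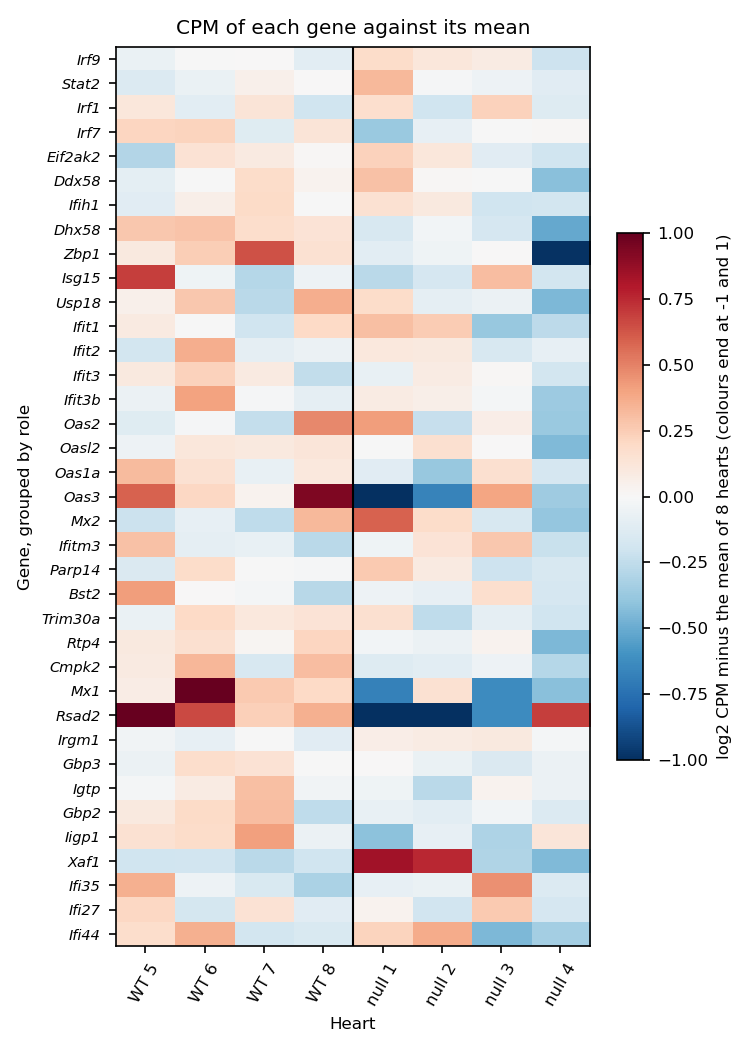
Log2 CPM of each of the 37 members in each heart minus its mean over the 8 hearts, in rows grouped by role and columns by heart, with colours ending at -1 and 1. HVCN1 null heart 4 is blue for most members, while Rsad2 and Iigp1 are red there. Xaf1 is red in HVCN1 null hearts 1 and 2 and blue in all other hearts.

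Markers of cells that could carry these transcripts were set beside them. All 15 macrophage markers had log2 fold changes below 0, with a median of -0.31. Their summed level was 272.5 to 340.7 CPM in HVCN1 null hearts and 312.0 to 433.2 CPM in WT hearts. None of the 15 was a DEG. At an unadjusted edgeR p under 0.05, 7 of the 15 were lower in HVCN1 null hearts, against 5.52% of all tested genes. Of 9 endothelial markers 7 were below 0 (median -0.11), with sums of 1252 to 1606 CPM in HVCN1 null hearts and 1372 to 1792 CPM in WT hearts. Of 7 fibroblast markers 6 were below 0 (median -0.16), with sums of 900.2 to 1451 CPM and 963.6 to 1574 CPM. T and NK cell markers were low, at 3.64 to 8.65 CPM summed in HVCN1 null hearts and 3.99 to 7.996 CPM in WT hearts. Of the 8 tested, 2 were below 0 (median 0.09). B cell markers summed to 12.5 to 44.7 CPM and 17.6 to 35.9 CPM, and neutrophil markers to 4.82 to 21.8 CPM and 9.30 to 24.5 CPM. Of 7 B cell markers 2 were below 0 (median 0.10), and of 4 tested neutrophil markers 3 were (median -0.41). Of the plasmacytoid dendritic cell list, whose cells are the main source of interferon alpha, Siglech was at 0.435 ± 0.149 CPM in HVCN1 null hearts against 0.224 ± 0.117 CPM in WT hearts, and Ccr9 and Klk1 were too low to be tested. Of the 4 tested genes of that list, 1 was below 0 (median 0.08). The sum of that list rests on Cox6a2 and Tcf4, which heart muscle also expresses. The part of these cells in the values of the members was not tested.

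The interferons themselves were at the limit of detection. Of 20 ligand genes, 17 had 0 counts in all 8 hearts, and the 20 together had 8 counts in 271395360 reads, 6 of them from Ifng. A count of 0 over all hearts allows up to 0.0111 CPM, with counting error alone considered. Near copies were not searched for among the ligand genes, so reads lost to shared sequence are not covered by this limit. No ligand could be tested. All 6 receptor chains were tested and 0 were DEGs, with 4 below 0 and a median log2 fold change of -0.05. The highest CPM, a value not set per length, was that of Ifngr2, a chain of the interferon gamma receptor, at 199.9 ± 26.2 CPM in HVCN1 null hearts against 193 ± 20.98 CPM in WT hearts, followed by Il10rb, a shared chain of the interferon lambda receptor, at 79.3 ± 4.04 and 71.7 ± 5.55 CPM. The 2 largest absolute differences were those of Il10rb (log2 fold change 0.14) and Ifngr1 (-0.14). The 5 kinases and STATs had a median of 0.08 and 0 DEGs, with Jak1 at 144 ± 8.34 and 134 ± 9.80 CPM (log2 fold change 0.11), Stat3 at 128 ± 9.76 and 121 ± 17.7 CPM (0.08) and Tyk2 at 0.09.

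Of 17 further genes of nucleic acid sensing, 16 were tested and 0 were DEGs, with 10 below 0 and a median of -0.10. Trex1 is listed at 0 in every heart. Mavs, the mitochondrial adaptor of RNA sensing, was at 64.1 ± 2.56 CPM in HVCN1 null hearts against 72.2 ± 7.53 CPM in WT hearts (log2 fold change -0.17), and Samhd1, a nucleotide hydrolase, at 39.0 ± 2.59 and 42.1 ± 2.14 CPM (-0.11). The endosomal receptors Tlr8 and Tlr9 had the largest absolute differences, -0.72 and -0.68 (edgeR adjusted p = 0.520 and 0.547). At an unadjusted p under 0.05, Ticam1, the adaptor of TLR3, had a log2 fold change of 0.29 (edgeR adjusted p = 0.319) and the factor Irf5 had -0.40 (edgeR adjusted p = 0.402). The 7 brakes on signalling had a median of 0.01 and 0 DEGs. Among them were the phosphatase Ptpn11 at 242 ± 15.9 and 240.5 ± 36.1 CPM (log2 fold change 0.01), Pias1 at 0.02, Socs1, a feedback inhibitor of JAK kinases, at 0.26, and the phosphatase Ptpn2 at -0.19.

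A wider list of 71 other interferon-induced genes leaned the same way as the members. Of its 67 tested genes 50 had log2 fold changes below 0, against 52.7% of all tested genes, with a median of -0.14. Lower genes with an unadjusted edgeR p under 0.05 numbered 11, against 5.52% of all tested genes, and higher ones 0, against 5.46%. Ly6e and Slfn5, which had the highest CPM, had log2 fold changes of 0.00 and 0.08. Only Trim12a and Trim34a were DEGs, against 1.14% of all tested genes, and both were lower in HVCN1 null hearts. Trim12a was at 8.95, 7.28, 7.68 and 6.08 CPM in HVCN1 null hearts and at 13.03, 13.1, 12.8 and 12.7 CPM in WT hearts (log2 fold change -0.79, SE 0.12, edgeR adjusted p = 0.0126). The values of WT hearts were tight and all HVCN1 null hearts lay well below them. Trim34a was at 5.10, 4.12, 4.10 and 3.504 CPM in HVCN1 null hearts and at 6.55, 6.86, 6.64 and 6.72 CPM in WT hearts (log2 fold change -0.67, SE 0.13, edgeR adjusted p = 0.0485). Trim12a was a DEG in 14 of the 15 fits with another scaling, filter or test or with 1 heart left out, missing the threshold without WT heart 6 (edgeR adjusted p = 0.0539). Trim34a was a DEG in 5 of 15 and was lost when any heart but HVCN1 null heart 1 was left out (adjusted p up to 0.164 over the 15 fits, by edgeR, DESeq2 or limma). With the 4 hearts of little atrial RNA, or the 4 of much, neither was a DEG, and without HVCN1 null hearts 1 and 2 Trim34a was not (edgeR adjusted p = 0.0747).

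Both genes lie beside the member Trim30a in a cluster of TRIM genes on chromosome 7, which encode ubiquitin ligases of antiviral defence. The genes within 250 kb of Trim30a were therefore listed, a choice made after these values were seen. Trim30a, from 104409025 to 104465193 on GRCm38, was at 10.7, 8.05, 9.01 and 8.36 CPM in HVCN1 null hearts and at 9.14, 11.0, 10.3 and 10.5 CPM in WT hearts (log2 fold change -0.18, SE 0.12, edgeR adjusted p = 0.684). HVCN1 null heart 1 lay among the WT hearts. Its neighbours covered a wider range in both directions. Trim5 was at 1.08, 1.04, 1.60 and 1.02 CPM in HVCN1 null hearts and at 2.91, 2.63, 2.99 and 3.21 CPM in WT hearts (log2 fold change -1.31, SE 0.20, edgeR adjusted p = 0.0120). Trim34b had 184 counts over HVCN1 null hearts and 8 over WT hearts, at 1.59, 1.39, 1.56 and 1.07 CPM against 0.0253, 0, 0.159 and 0.0338 CPM (log2 fold change 4.54, SE 0.56, edgeR adjusted p = 0.00337). Trim30d had a log2 fold change of -0.90 (edgeR adjusted p = 0.0905), Trim30b -0.78, Trim6 0.34 and Trim12c 0.00.

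**Figure D5:**
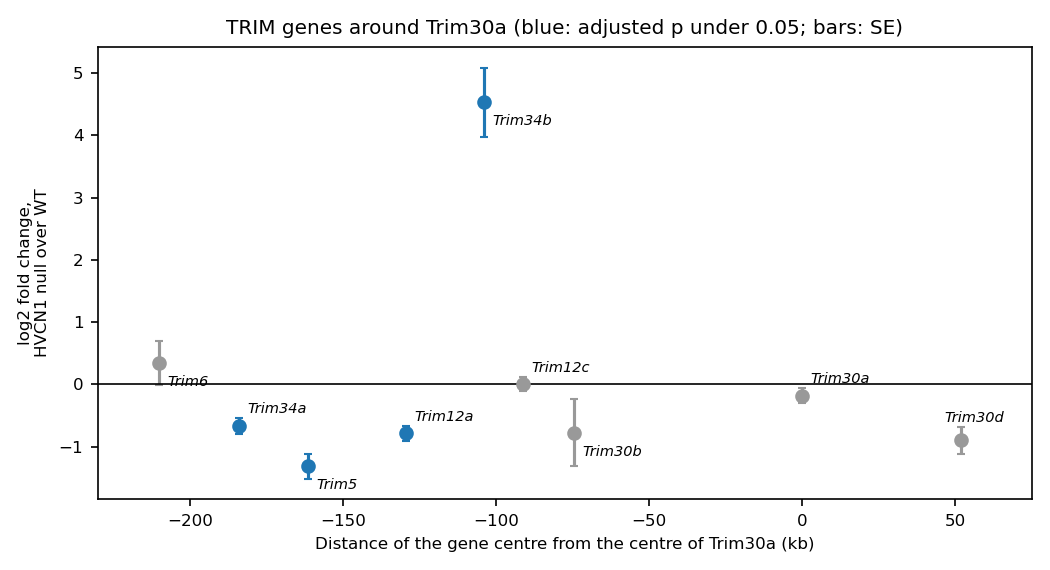
Log2 fold change (HVCN1 null over WT, bars SE) of TRIM genes within 250 kb of Trim30a, by the distance of their centres in kb. Trim34b lies at 4.54 and the DEGs Trim5, Trim12a and Trim34a below 0, while Trim30a itself lies at -0.18.

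Genes of the cluster are close copies of each other. Trim34b is 98.7% identical to Trim34a over all of its length, Trim5 is 94.3% identical to Trim12c over all of its length, and Trim12a is 97.1% identical to Trim5 over 60.6%. Trim30a shares 90.1% identity with Trim30d over 49.1% of its length. Reads of 50 bases in pairs can be shared by such copies, so the values of single genes in the cluster are uncertain. Trim5 and Trim34b were DEGs in 15 of those 15 fits, and Trim30d in 2. In the fits to fewer hearts, Trim5 was not a DEG with little atrial RNA (edgeR adjusted p = 0.132), with much (0.598) or without HVCN1 null hearts 1 and 2 (0.130), and Trim34b was not with much (0.203).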

How the data were processed

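Poly-A RNA of 4 HVCN1 null and 4 WT hearts was sequenced as paired reads of 50 bases. Per the labels and the methods, the authors aligned reads with STAR and counted them per Ensembl gene with featureCounts. The deposited values are these raw counts, without normalization. The labels name mm10/GRCm38, while the methods name a human build, and the identifiers are those of mouse genes. Versions, annotation and strand setting are not given in the sources used here. Of 39056 gene identifiers, 38872 (99.5%) were matched without version to GENCODE M21.

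Genes were filtered by filterByExpr and scaled by TMM in edgeR 4.0.16 (R 4.3.3), and the groups were compared by the quasi-likelihood test with Benjamini-Hochberg adjustment over all genes tested, without covariates. CPM per heart is given with SD over hearts, and floors cover counting error only. The test was checked on simulated counts. DESeq2 1.42.0 and limma 3.58.1 gave alternatives, with other scalings, filters, an adjusted p under 0.1 and each heart left out, 4 further sets being added after seeing the data (the atrial split as a term, hearts with little or much atrial RNA, and without HVCN1 null hearts 1 and 2). Near copies were found with BLAST 2.17.0. Figures were drawn with Python 3.11.15 and matplotlib 3.10.9.

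Members, lists and tests were chosen with earlier results of these data known. Members given heart by heart are those with an unadjusted p under 0.05, the 5 most positive and 5 most negative log2 fold changes and the 5 highest CPM per kb. Of the other pathway lists, DEGs, the 2 genes of highest mean CPM and the 2 of largest absolute log2 fold change are named, and other genes named there were chosen after their values were seen. No batch is given by the labels. One item is not reported here singly, though list counts and totals include it.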

Additional observations from a re-analysis of the deposited data

Results flagged for a closer look

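In 5 of the 74 gene and group combinations of the members, 1 heart stood apart from the other 3 of its group, its gap to the nearest of them divided by the group's range on the log2 CPM scale exceeding Dixon's 95% critical value. About 1 in 20 such groups, here 3.7, is flagged by chance. Zbp1 stood at 0.763 CPM in HVCN1 null heart 4, where the other HVCN1 null hearts lay between 1.41 and 1.52 CPM. Ifi35 stood at 21.6 CPM in HVCN1 null heart 3, with the others of its group between 14.3 and 15.1 CPM. Ifit3b stood at 4.08 CPM in WT heart 6, with the other WT hearts between 2.90 and 3.07 CPM. Oasl2 stood at 13.5 CPM in WT heart 5, with the others between 14.9 and 15.2 CPM. Xaf1 stood at 9.20 CPM in WT heart 7, with the others between 9.69 and 9.74 CPM, a narrow gap in a tight group.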

How the results depend on the processing

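The count of 0 DEGs among the members was kept under every alternative but one, the omission of HVCN1 null heart 4, after which Rsad2 was called (0 to 1 over the 8 fits with 1 heart left out). DEGs over all genes numbered 169, and were 367 by edgeR's exact test, 466 by DESeq2, 71 in the hearts with little atrial RNA, 24 in those with much, 88 without HVCN1 null hearts 1 and 2, and 71 (without WT heart 6) to 152 with 1 heart left out. Members at an unadjusted p under 0.05 were 6, and 3 with library sizes not scaled, 3 with little atrial RNA, 2 with much, 1 without HVCN1 null hearts 1 and 2, and 1 to 6 with 1 heart left out. The median log2 fold change was -0.18 without HVCN1 null hearts 1 and 2 and -0.14 to -0.03 with 1 heart left out. Members without overlap were 2, then 1 with library sizes not scaled and 2 to 6 with 1 heart left out, reaching 6 without HVCN1 null heart 3, HVCN1 null heart 4 or WT heart 7 and 5 without WT heart 8. The 2 calls in the pathway lists were 1 with library sizes not scaled, without a filter, with CPM above 1 required in 4 hearts and without HVCN1 null hearts 1 and 2, 0 with little or much atrial RNA, and 0 (without WT heart 6) to 2 with 1 heart left out. The cause was not tested, but fits to fewer hearts have less power by construction. Groups of fewer hearts also separate without overlap more readily by construction, and the share of all tested genes in those fits is not given here.

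Some small log2 fold changes turned sign. Without HVCN1 null hearts 1 and 2, Irf9 was at -0.00059, Stat2 at -0.031, Mx2 at -0.22, Xaf1 at -0.15 and Ifi27 at 0.043. In the hearts with little atrial RNA, Bst2 was at 0.036 and Ifi27 at 0.093. With 1 heart left out the ranges were -0.020 to 0.13 for Stat2, -0.062 to 0.29 for Mx2, -0.17 to 0.070 for Bst2, -0.13 to 0.040 for Ifi27, -0.077 to 0.24 for Ifi35, -0.016 to 0.20 for Ifitm3 and, without a change of sign, -1.56 to -0.72 for Rsad2. No paired analysis was possible because the labels give no pairing of hearts between the groups. With 4 hearts a group, differences of Oas3 and Mx1 rest on 9 to 43 counts per heart.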
